A study of Mus musculus with 2 samples.

Results

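The 6 genes described here are 5 components of the NF-kB pathway that act in its own feedback or carry its signal, Nfkbia, Nfkbiz, Nfkbid, Nfkb1 and Tnfaip3, together with the kinase gene Pim1. They were chosen by name, with their levels in these cells already known, out of 33696 mouse genes in the deposited expression matrix. Their gene identifiers in the files are ENSMUSG00000021025 (Nfkbia), ENSMUSG00000035356 (Nfkbiz), ENSMUSG00000036931 (Nfkbid), ENSMUSG00000028163 (Nfkb1), ENSMUSG00000019850 (Tnfaip3) and ENSMUSG00000024014 (Pim1). Another 106 genes in 8 lists (other NF-kB inhibitors, NF-kB subunits, kinases, adaptors, receptors, NF-kB targets, PIM and STAT5 genes, and immediate early and stress genes) were measured beside them.

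The cells were CD45+ immune cells sorted from subcutaneous tumours of MC38, a mouse colon carcinoma line, 4 days after treatment had been given. Every mouse carried human Fc gamma receptors, had 2000000 MC38 cells implanted in the flank, and received antibody as 100 µg in each of 2 injections 3 days apart, or none. The antibodies were human IgG1 antibodies to mouse GITR, a receptor of the TNF receptor superfamily encoded by Tnfrsf18. N297A was described as an agonist with an inert Fc part (2 mice), GA-aFuc as an agonist with an Fc part of enhanced binding (1 mouse), and GITR/Syn GA-aFuc as a non-agonist with an enhanced Fc part (1 mouse). The Untreated group held 2 mice, and the series text names PBS as the control. What Syn stands for was not given in the sources used here. GA-aFuc and GITR/Syn GA-aFuc are called the Fc-enhanced antibodies below, and they also differ from each other in agonism. The design gave 3 mice per treatment, and the single expression library analysed here held 6 mice, each marked by its own hashtag antibody.

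NF-kB dimers wait in the cytoplasm bound to inhibitors of the IkB family, of which IkB alpha, the product of Nfkbia, is the classical one. Signals from TNF receptor superfamily members, antigen receptors and Toll-like receptors lead to the destruction of IkB alpha, and the freed dimers then switch on genes that include Nfkbia itself and Tnfaip3, which encodes the ubiquitin-editing enzyme A20 that dampens the signal upstream. Nfkb1 encodes p105, the precursor of the p50 subunit. Nfkbiz and Nfkbid encode the atypical nuclear inhibitors IkB zeta and IkBNS, which bind p50 at chosen promoters and can raise or lower transcription there. Pim1 encodes a serine/threonine kinase that favours survival and growth and is induced by cytokines through STAT proteins, in lymphocytes largely STAT5.

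The stretches before the start sites are shown for reference, since 3 of the genes hold NF-kB matches there and Pim1 does not. A link between these matches and the levels described further on was not tested. RefSeq promoter windows (250 bases before to 50 after a start site, GRCm38.p6) were found for Nfkbia (1 window), Nfkbid (3), Tnfaip3 (2) and Pim1 (2), while Nfkb1 and Nfkbiz are named only. Capitals mark matches, on either strand, to the 10-letter NF-kB consensus. Positions are counted from the start site. The 4 windows below are Nfkbia at chr12:55492598-55492897 (minus strand), the second Nfkbid window at chr7:30422156-30422455 (plus strand), the first Tnfaip3 window at chr10:19015361-19015660 (minus strand) and the first Pim1 window at chr17:29490535-29490834 (plus strand).
Nfkbia: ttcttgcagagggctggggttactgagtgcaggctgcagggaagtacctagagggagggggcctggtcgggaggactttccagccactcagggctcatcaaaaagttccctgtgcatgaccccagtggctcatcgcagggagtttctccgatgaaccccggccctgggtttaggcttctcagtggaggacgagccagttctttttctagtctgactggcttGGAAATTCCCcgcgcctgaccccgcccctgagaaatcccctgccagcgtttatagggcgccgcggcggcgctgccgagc
Nfkbid: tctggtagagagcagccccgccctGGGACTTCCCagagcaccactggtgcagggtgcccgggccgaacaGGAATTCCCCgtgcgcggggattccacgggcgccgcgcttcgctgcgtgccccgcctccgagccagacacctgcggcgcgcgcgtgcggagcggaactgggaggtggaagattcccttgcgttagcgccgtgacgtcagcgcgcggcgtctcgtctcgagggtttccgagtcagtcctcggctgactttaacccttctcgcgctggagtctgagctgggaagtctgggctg
Tnfaip3: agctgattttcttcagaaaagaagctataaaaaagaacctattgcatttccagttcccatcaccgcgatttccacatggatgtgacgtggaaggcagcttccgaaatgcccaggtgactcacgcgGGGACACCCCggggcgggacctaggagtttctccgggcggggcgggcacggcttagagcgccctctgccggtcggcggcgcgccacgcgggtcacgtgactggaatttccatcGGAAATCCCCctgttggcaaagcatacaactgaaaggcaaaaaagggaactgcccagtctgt
Pim1: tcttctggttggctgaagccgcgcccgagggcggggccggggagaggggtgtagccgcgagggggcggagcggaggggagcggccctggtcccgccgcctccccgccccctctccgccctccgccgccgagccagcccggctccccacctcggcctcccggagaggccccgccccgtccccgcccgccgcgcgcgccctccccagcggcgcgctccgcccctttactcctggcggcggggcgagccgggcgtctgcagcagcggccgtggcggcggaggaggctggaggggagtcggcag
Nfkbia held 1 marked place, from -29 to -20. The second Nfkbid window held 2 places, from -226 to -217 and from -181 to -172. The first Tnfaip3 window held 2 places, from -125 to -116 and from -12 to -3. Neither Pim1 window held a match, nor did the second Tnfaip3 window or the other Nfkbid windows. Over all mouse windows, 2779 of 32851 (8.46%) held the NF-kB consensus, and 2581 of 27025 genes (9.55%) had at least 1 window with it. Among the listed genes with a window, 7 of 13 other NF-kB inhibitors and feedback genes, 2 of 3 NF-kB subunits and 6 of 16 NF-kB targets held one. So did 5 of 11 immediate early and stress genes, 3 of 10 receptors and 3 of 10 PIM and STAT5 genes. The adaptors had 3 of 13 and the kinases 1 of 9, so matches were not particular to the NF-kB lists. The STAT palindrome TTCNNNGAA, which reads the same on both strands, was present in those other Nfkbid windows and in no window of Nfkbia, Tnfaip3 or Pim1, against 2726 of 32851 windows (8.30%) overall. A match is a run of letters in a window, and none was tested for binding.

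After filtering, 8716 cells were kept, with 1379 to 1519 per mouse, 16479710 to 19339165 mouse UMIs (distinct mRNA molecules counted) per mouse and a median of 11259 to 12940 UMIs per cell. The deposited cell type names gave 723 NK cells, 907 CD8 T cells, 97 CD4 T cells and 74 Tregs (regulatory T cells) among lymphocytes, and 4104 macrophages, 2486 monocytes, 200 cDC2, 47 cDC1, 57 mregDC (mature regulatory dendritic cells) and 21 pDC (plasmacytoid dendritic cells). For 6 of the 10 names the summed marker genes were highest in the cells that bore the name. Monocyte, cDC2 and NK markers summed higher in the 21 pDC, with 5 of 6 NK markers highest in NK cells, 2 of 6 monocyte markers in monocytes and 3 of 6 cDC2 markers in cDC2. The CD4 T cell markers summed to a higher level in CD8 T cells than in the cells named CD4, so that name is used as deposited. Barcodes that the cell table repeats were left out where they could not be assigned (18 entries). Levels are CPM, the UMIs of a gene per 1000000 mouse UMIs of the same cells. They come from 3′ ends and are compared between cell types and mice, never between genes.

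**Figure D1:**
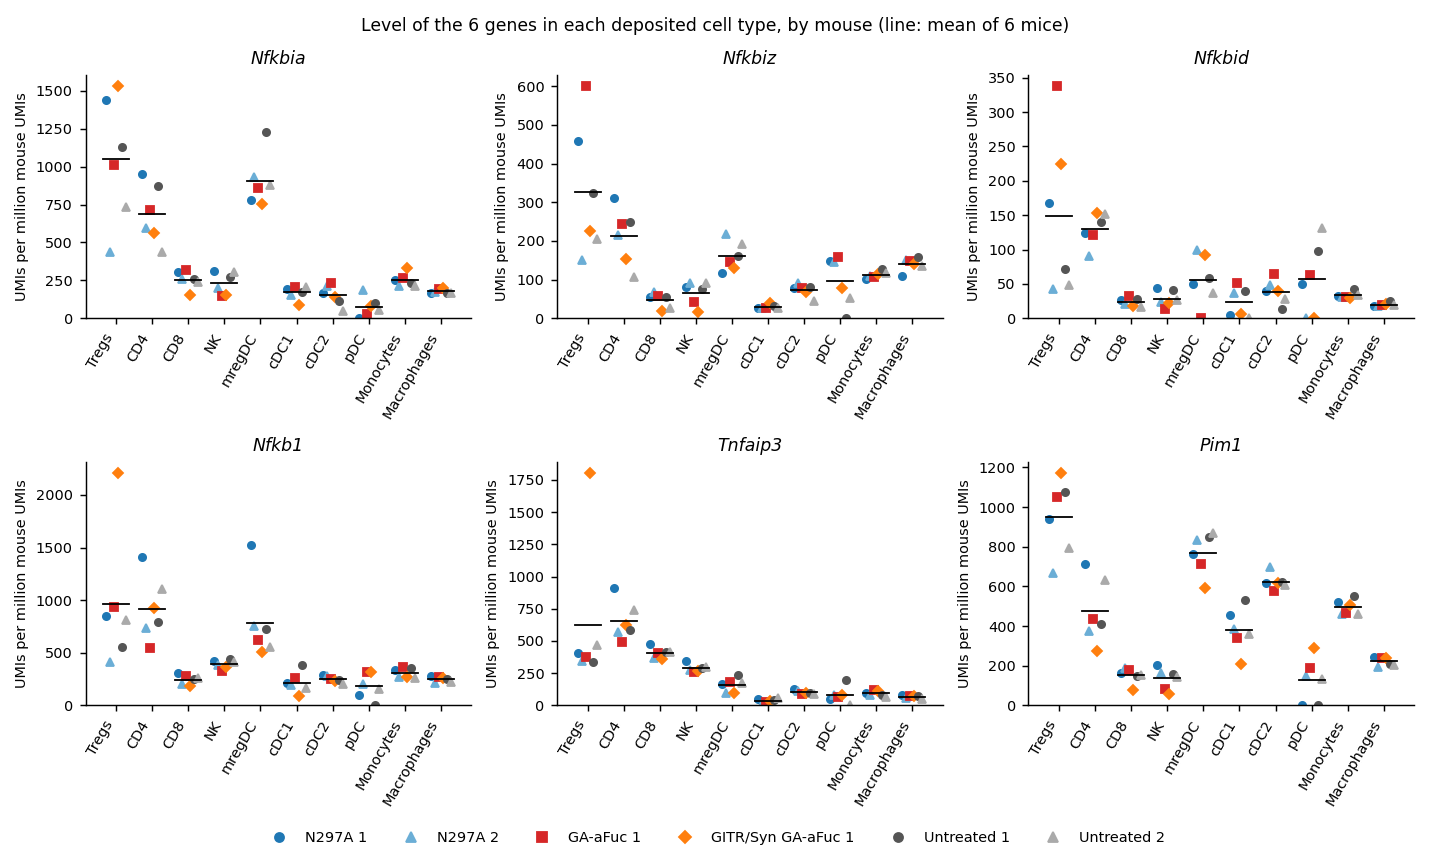
Level of each of the 6 genes (CPM, linear axis) in the 10 deposited cell types, 1 panel per gene, 1 dot per mouse and a line at the mean of the 6 mice. Tregs, CD4 T cells and mregDC lie highest for Nfkbia and Nfkb1, while monocytes and cDC2 lie above CD8 T cells and NK cells for Pim1.

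Nfkbia, the classical inhibitor, averaged 1048 ± 415 CPM in Tregs, 906 ± 172 in mregDC and 689 ± 196 in CD4 T cells (SD, n = 6 mice). Its level was 256 ± 59.2 in CD8 T cells, 252 ± 46.0 in monocytes, 231 ± 75.0 in NK cells and 178 ± 14.4 in macrophages (SD, n = 6). The step from CD4 T cells down to CD8 T cells held in 6 of 6 mice and was larger than the SD of either type. Below CD4 T cells, the steps from CD8 T cells to monocytes and from monocytes to NK cells were smaller than the larger SD.

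The atypical inhibitors had orders of their own. Nfkbiz averaged 327 ± 172 CPM in Tregs and 213 ± 73.3 in CD4 T cells (SD, n = 6). In macrophages Nfkbiz averaged 140 ± 17.4 CPM, against 113 ± 9.79 in monocytes (SD, n = 6), and it was higher in macrophages in 6 of 6 mice. Nfkbiz was the exception here, because each of the other 5 genes was higher in monocytes than in macrophages in 6 of 6 mice. Nfkbid averaged 149 ± 118 CPM in Tregs and 131 ± 23.4 in CD4 T cells, against 23.6 ± 6.18 in CD8 T cells (SD, n = 6). Macrophages had the lowest mean of Nfkbid, 19.99 ± 2.61 CPM, and cDC1 had the lowest mean of Nfkbiz, 29.2 ± 5.25 CPM (SD, n = 6).

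Nfkb1, which encodes the p50 precursor, averaged 963 ± 640 CPM in Tregs, 919 ± 303 in CD4 T cells and 782 ± 376 in mregDC (SD, n = 6). NK cells came next with 393 ± 41.4 CPM, against 246 ± 46.3 in CD8 T cells, and were higher in 6 of 6 mice. That NK to CD8 difference was 0.69 on the log2 scale (SD 0.29, n = 6 mice). Tnfaip3 had the opposite order in these cells, with 289 ± 31.1 CPM in NK cells against 406 ± 40.03 in CD8 T cells, and it was lower in NK cells in 6 of 6 mice (log2 difference -0.49, SD 0.08). Its highest means were 653 ± 149 in CD4 T cells and 623 ± 579 CPM in Tregs (SD, n = 6). In myeloid cells Tnfaip3 was lower, with 93.9 ± 19.3 CPM in monocytes and 68.7 ± 11.3 in macrophages.

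Pim1 was higher in cDC2 and monocytes than in macrophages, CD8 T cells and NK cells. Its mean was 950.3 ± 189 CPM in Tregs, 770 ± 106 in mregDC, 624 ± 40.2 in cDC2 and 495 ± 37.8 in monocytes (SD, n = 6). cDC2 were above monocytes in 6 of 6 mice. Monocytes were above macrophages in 6 of 6 mice by 1.16 on the log2 scale (SD 0.15), with 222 ± 20.9 CPM in macrophages. The lowest of the large groups were CD8 T cells with 152 ± 38.3 and NK cells with 136 ± 55.0 CPM, which did not differ by more than the SD of either.

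Treg values rest on few cells, 20 and 24 in the N297A mice, 3 in the GA-aFuc mouse, 3 in the GITR/Syn GA-aFuc mouse, and 11 and 13 in the Untreated mice. In the GITR/Syn GA-aFuc mouse 1 Treg held 44 of the 49 Nfkb1 UMIs, 29 of the 40 Tnfaip3 UMIs and 29 of the 34 Nfkbia UMIs. The pooled Treg levels, which weight each UMI equally, were 927 CPM for Nfkbia, 729 for Nfkb1, 450 for Tnfaip3 and 855 for Pim1. Pim1 in Tregs exceeded its level in CD8 T cells in 6 of 6 mice, with a log2 difference of 2.66 (SD 0.68). For Tnfaip3 that order held in 2 of 6 mice, and its Treg level was 1800 CPM in the GITR/Syn GA-aFuc mouse against 341 to 471 in the other 5. The mregDC and CD4 T cells were few as well, with 6 to 13 mregDC and 12 to 24 CD4 T cells per mouse. In N297A 1, 1 mregDC held 48 of the 92 Nfkb1 UMIs. In Untreated 1, 1 CD4 T cell held 47 of the 119 Nfkb1 UMIs.

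RNA outside cells was read from 163454 barcodes that held 10 to 100 UMIs. It held 128 CPM of Nfkbia, 72.5 of Nfkbiz, 30.6 of Nfkbid, 114 of Nfkb1, 61.6 of Tnfaip3 and 224 of Pim1. Macrophage markers, which lymphocytes should lack, stood at 446 to 964 CPM in the NK cells of the 6 mice against 21706 in the free RNA, which caps the free share in NK cells at 2.06% to 4.44%. That cap allows 4.60 to 9.94 CPM of Pim1 in NK cells, where 60.1 to 206 were measured. The same cap allows 1.49 to 3.22 CPM of Nfkbiz, where 17.2 to 91.8 were measured. Each of the 6 genes lay above its cap in the NK cells and in the CD8 T cells of every mouse.

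The deposited clusters split NK cells into 5 groups and CD8 T cells into 5, and the 6 genes varied more among them than between the 2 cell types. NK cluster 26 (169 cells) was the highest NK cluster for each of the 6 genes. Pooled over mice, Pim1 stood at 445 CPM in NK cluster 26 against 39.0 in NK cluster 48 (95 cells), 11.4 times as much. Nfkbiz stood at 235 in NK cluster 26 against 23.1 in NK cluster 48, and Nfkbia at 551 against 129 CPM. The range was narrower for Nfkb1, with 743 in cluster 26 against 253 in cluster 48, and for Tnfaip3, with 490 in cluster 26 against 214 in cluster 20. Among CD8 T cells, cluster 23 (151 cells) was highest for Nfkbiz, Nfkbid, Nfkb1, Tnfaip3 and Pim1, while cluster 38 (139 cells) was highest for Nfkbia at 377 CPM. CD8 cluster 33 (202 cells) was lowest for each of the 6 genes, with Pim1 at 96.0 against 293 CPM in cluster 23. Since the clusters were formed on the same cells, these differences are described and not tested.

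Depth moved with this pattern in part. NK cluster 26 had a median of 4293 UMIs per cell and CD8 cluster 23 a median of 5242, against 12444 in NK cluster 48 and 9912 in CD8 cluster 33. The order was not strict: CD8 cluster 38, the deepest CD8 cluster with a median of 15116, came highest of the 5 for Nfkbia and next after cluster 23 for Nfkbiz, Nfkbid, Nfkb1 and Pim1. NK cluster 58 (49 cells), the deepest NK cluster with a median of 22125, lay above NK cluster 48 for each of the 6 genes. Over 11 lymphoid clusters, which share 1 library, the correlation of level with log2 median UMIs was -0.60 for Nfkbia, -0.74 for Nfkbiz, -0.71 for Nfkbid, -0.58 for Nfkb1, -0.75 for Tnfaip3 and -0.73 for Pim1. Summed macrophage markers were 1452 CPM in NK cluster 26, 816 in cluster 19, 518 in cluster 20 and 686 in cluster 48. Summed immediate early and stress genes were 5022 CPM in cluster 26 against 4004 in cluster 20 and 3705 in cluster 48. The part of depth, of macrophage RNA and of stress genes in the cluster differences was not tested.

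The genes moved together across lymphoid clusters and less so across myeloid ones. Over the 11 lymphoid clusters, Pearson's r of log2 level between Nfkbia and Pim1 was 0.97, and between Nfkbiz and Pim1 it was 0.95. Over the 37 macrophage and monocyte clusters the same pairs had r of 0.78 and -0.24. Pairs with Tnfaip3 were looser over the lymphoid clusters, with r from 0.53 (Nfkb1) to 0.75 (Pim1). For Nfkb1 and Tnfaip3 the r over the macrophage and monocyte clusters was 0.48, close to the lymphoid value. Monocyte cluster 42 (117 cells) had the highest monocyte levels of Nfkbia, 594 CPM, and of Pim1, 946, while monocyte cluster 41 (103 cells) was lowest for both with 120 and 172 CPM. Macrophage cluster 9 (227 cells) had the highest macrophage level of Tnfaip3, 153 CPM, and of Pim1, 444. Macrophage cluster 28 (169 cells) was lowest for these 2 genes, with 16.0 CPM of Tnfaip3 and 92.8 of Pim1. Nfkbiz had its own places in these cells, highest in macrophage cluster 15 at 282 CPM and lowest among monocytes in cluster 54 at 46.7.

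In NK cells all 6 genes were lower in both Fc-enhanced mice than in each of the 4 N297A and Untreated mice. By the same measure 11.8% of 7010 genes with at least 100 UMIs in NK cells were lower in both, and the 6 genes were chosen with this pattern known, so nothing is read from the count. The size of the difference varied from gene to gene. It was largest for Nfkbiz and Pim1 and smallest for Nfkb1 and Tnfaip3.

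Nfkbia stood at 311 and 203 CPM in NK cells of the N297A mice, 144 in the GA-aFuc mouse and 152 in the GITR/Syn GA-aFuc mouse, against 269 and 306 in the Untreated mice. The 2 Fc-enhanced mice were close to each other and below the other 4, of which N297A 2 was lowest. In Untreated 2, 1 cell held 79 of the 304 Nfkbia UMIs. The mean of the Fc-enhanced mice was 148, against 272 ± 49.99 CPM in the N297A and Untreated mice (SD, n = 4), a log2 difference of -0.87. In edgeR's fit, which takes the spread of single-mouse groups from the groups of 2, the change was -0.94 (SE 0.21) in GA-aFuc and -0.87 (SE 0.23) in GITR/Syn GA-aFuc against Untreated.

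Nfkbiz stood at 81.7 and 91.8 CPM in NK cells of the N297A mice, 41.8 in the GA-aFuc mouse and 17.2 in the GITR/Syn GA-aFuc mouse, against 75.1 and 90.5 in the Untreated mice. The GITR/Syn GA-aFuc value rests on 14 UMIs and has an exact 95% Poisson interval of 9.39 to 28.8, which covers counting error only. That interval lies wholly below the GA-aFuc interval of 32.5 to 53.1. The Fc-enhanced mean was 29.5, against 84.8 ± 7.83 CPM in the other 4 mice (SD, n = 4), a log2 difference of -1.49. The edgeR change against Untreated was -0.91 (SE 0.24) in GA-aFuc and -2.21 (SE 0.34) in GITR/Syn GA-aFuc.

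Nfkbid was the sparsest of the genes, with 18 to 63 UMIs per mouse in NK cells. Its level was 43.9 and 24.5 CPM in the N297A mice, 14.2 in GA-aFuc and 22.1 in GITR/Syn GA-aFuc, against 41.2 and 26.1 in the Untreated mice. The GITR/Syn GA-aFuc interval of 13.1 to 34.9 includes the values of N297A 2 and Untreated 2, so that the gap to them was within counting error. The edgeR change against Untreated was -1.22 (SE 0.42) in GA-aFuc and -0.60 (SE 0.45) in GITR/Syn GA-aFuc.

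Nfkb1 stood at 424 and 384 CPM in NK cells of the N297A mice, 328 in GA-aFuc and 367 in GITR/Syn GA-aFuc, against 439.8 and 414 in the Untreated mice. Tnfaip3 stood at 345 and 278 in the N297A mice, 256 in GA-aFuc and 268.5 in GITR/Syn GA-aFuc, against 294 and 295 CPM in the Untreated mice. For these 2 genes the gap between the groups was narrow: the Fc-enhanced mean was below the other 4 by -0.26 on the log2 scale for Nfkb1 and by -0.21 for Tnfaip3. The edgeR changes of Tnfaip3 against Untreated were within their SE, -0.14 (SE 0.16) in GA-aFuc and -0.09 (SE 0.17) in GITR/Syn GA-aFuc.

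Pim1 stood at 206 and 166 CPM in NK cells of the N297A mice, 81.8 in GA-aFuc and 60.1 in GITR/Syn GA-aFuc, against 159 and 144 in the Untreated mice. The Fc-enhanced mean was 71.0, against 169 ± 26.6 CPM in the other 4 mice (SD, n = 4), a log2 difference of -1.24. Of the 143 Pim1 UMIs in Untreated 2, 27 came from 1 cell. The edgeR change against Untreated was 0.27 (SE 0.15) in N297A, -0.84 (SE 0.20) in GA-aFuc and -1.30 (SE 0.23) in GITR/Syn GA-aFuc.

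**Figure D2:**
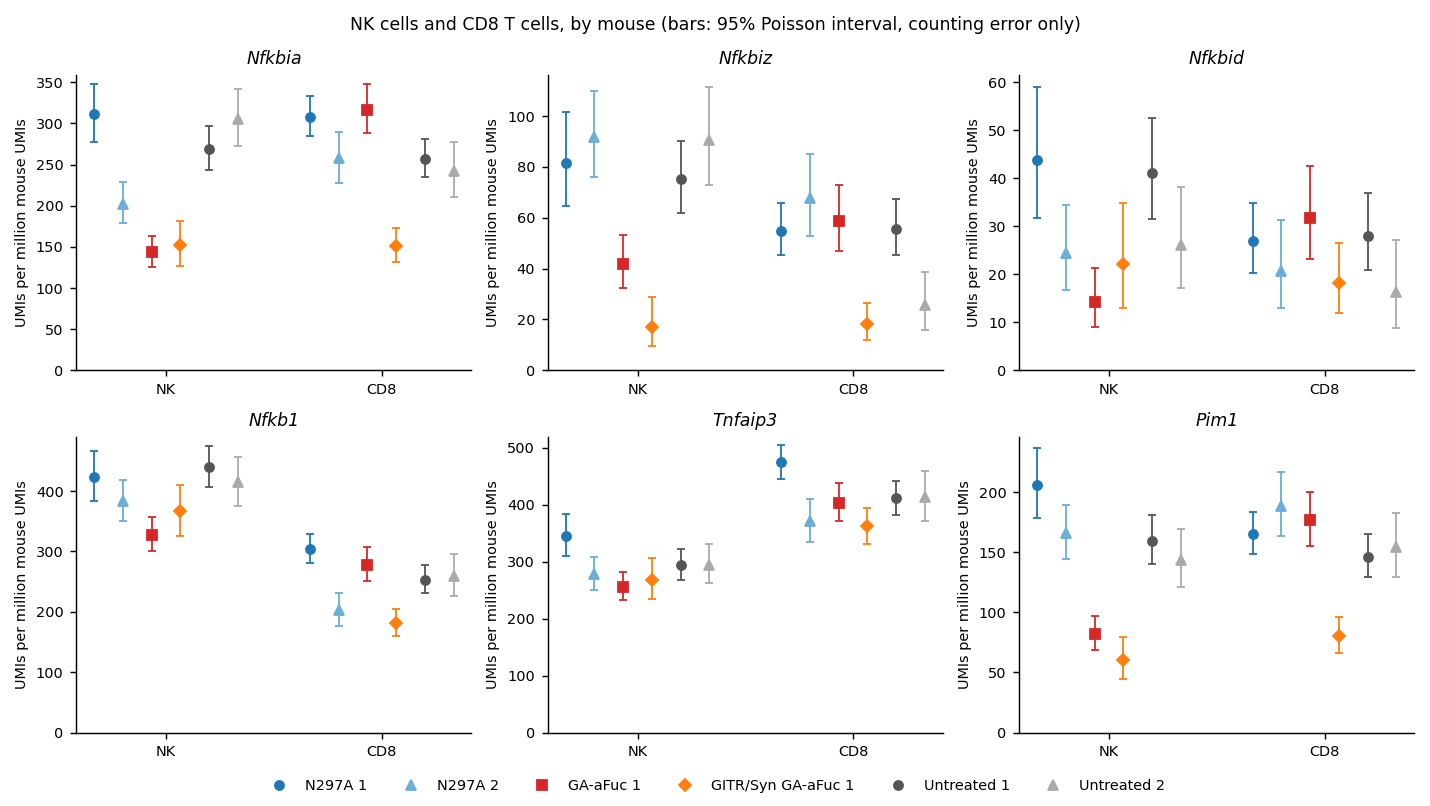
Level of the 6 genes (CPM) in NK cells and CD8 T cells of each mouse, with exact 95% Poisson intervals that cover counting error only, antibody-treated mice left of Untreated mice. In NK cells GA-aFuc and GITR/Syn GA-aFuc lie lowest in each panel, and in CD8 T cells GITR/Syn GA-aFuc lies lowest for 5 of the 6 genes.

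In the edgeR fit over 9223 NK genes, 2 of the 6 genes, Nfkbiz and Pim1, passed an adjusted p of 0.05 as lower in GITR/Syn GA-aFuc against Untreated, where 0.0434% of all genes passed as lower. None of the 6 passed in GA-aFuc (0.0651% of all genes in either direction) or in N297A against Untreated (0.0108%). In the comparison of both Fc-enhanced antibodies with N297A and Untreated together, added after the values by mouse were seen, the same 2 genes passed, where 0.0542% of all genes passed as lower. The change there was -1.60 (SE 0.21) for Nfkbiz, -1.20 (SE 0.15) for Pim1, -0.81 (SE 0.16) for Nfkbia and -0.15 (SE 0.12) for Tnfaip3. Because these samples chose the genes, the calls are a description. Neither call was firm: for GITR/Syn GA-aFuc against Untreated, Nfkbiz did not pass without N297A 2, Untreated 1 or Untreated 2, nor did Pim1, and neither passed with DESeq2. Pim1 also did not pass with a minimum of 3000 UMIs per cell or without its top cell. In the joined comparison Nfkbiz did not pass without GITR/Syn GA-aFuc, where its change was -0.95, or without either Untreated mouse, and Pim1 did not pass without either Untreated mouse.

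NK cells of the Fc-enhanced mice also held more UMIs per cell. Their median was 11262 UMIs in GA-aFuc and 10212 in GITR/Syn GA-aFuc, against 6902 and 6663 in the N297A mice and 7321 and 6426 in the Untreated mice. NK cluster 26, highest for the 6 genes, made up 17.6% of NK cells in GA-aFuc and 16.2% in GITR/Syn GA-aFuc, against 25.5% to 26.1% in the other 4 mice. Levels were therefore recomputed in 3 other ways. With every mouse given the same make-up of clusters, Nfkbia, Nfkbiz, Nfkb1 and Pim1 remained lower in both Fc-enhanced mice, as 8.15% of the 7010 genes were, and Nfkbid and Tnfaip3 overlapped. With each cell thinned to 2000 UMIs, the same 4 genes were lower in both, as 11% of the 7010 genes were, and Nfkbid and Tnfaip3 overlapped. Thinning leaves the expected share of a gene in each cell unchanged and gives every cell equal weight. It therefore cannot tell whether the lower levels go with depth.

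Counted as UMIs per cell, with no division by depth, 3 of the 6 genes were lower in both Fc-enhanced mice, where 1.11% of the 7010 genes were. Since this is the contrast that chose the genes, nothing is read from that count. Pim1 was at 1.02 UMIs per cell in GA-aFuc and 0.662 in GITR/Syn GA-aFuc, against 1.32 to 1.84 in the other 4 mice. Nfkbiz was at 0.519 and 0.189 UMIs per cell in the same 2 mice, against 0.693 to 0.896 in the other 4. Nfkbia was at 1.79 and 1.68, against 1.98 to 2.81. For Nfkb1 the UMIs per cell were 4.07 and 4.04 against 3.75 to 4.05, and for Tnfaip3 they were 3.18 and 2.96 against 2.71 to 3.07, so that neither was lower per cell. Relative to the mean of the other 4 mice, Pim1 was at 48.5% in GA-aFuc and 35.6% in GITR/Syn GA-aFuc by CPM, and at 65.0% and 42.4% by UMIs per cell. Nfkbiz was at 49.4% and 20.3% by CPM, and at 65.9% and 24.0% by UMIs per cell.

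**Figure D3:**
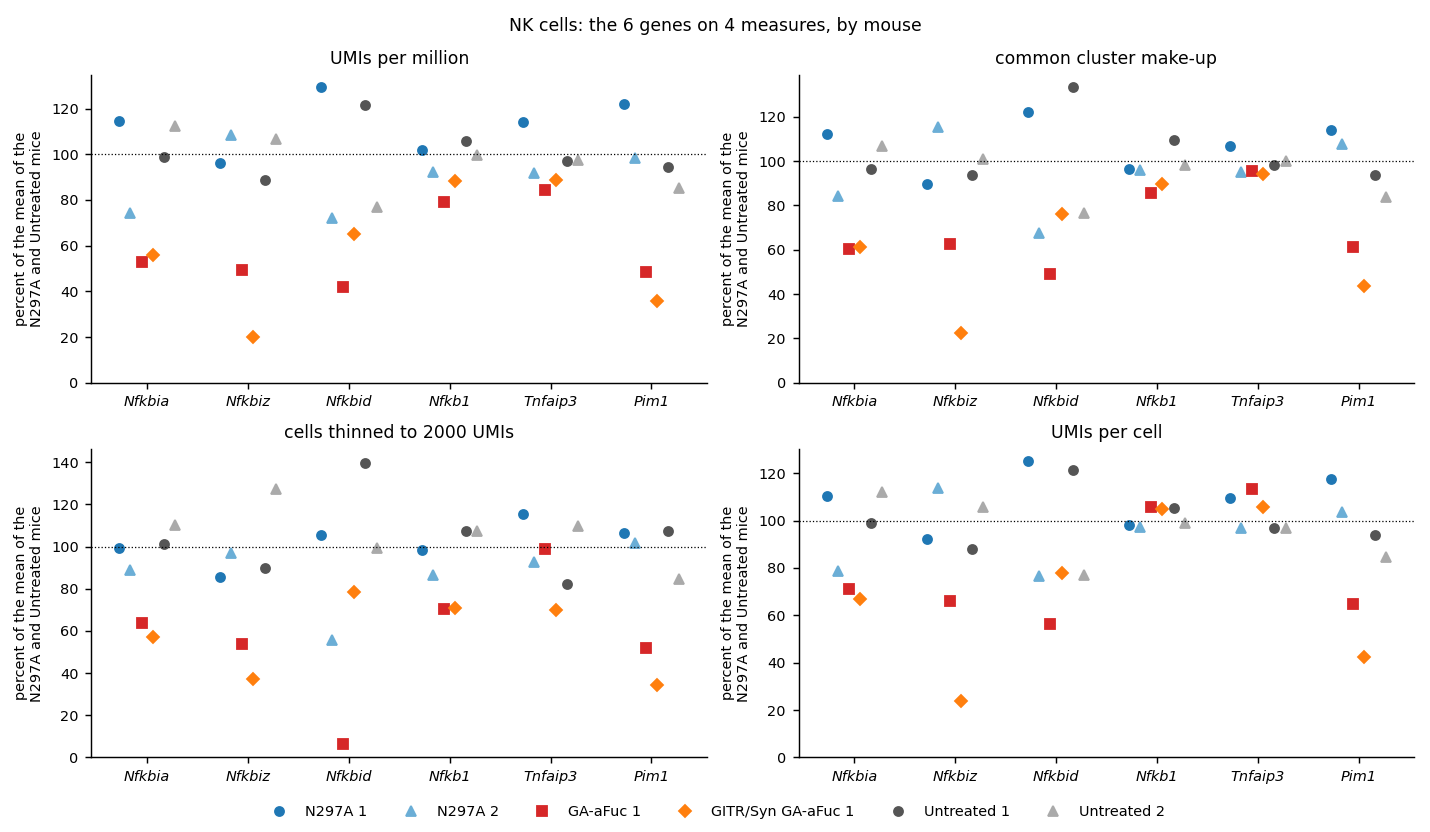
Level of the 6 genes in NK cells of each mouse as a percentage of the mean of the N297A and Untreated mice, by CPM, with a common cluster make-up, with cells thinned to 2000 UMIs and by UMIs per cell. Pim1, Nfkbiz and Nfkbia of both Fc-enhanced mice lie below the other 4 mice in each measure, and Nfkb1 and Tnfaip3 do not by UMIs per cell.

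Within single NK clusters, Nfkbiz was lower in both Fc-enhanced mice in clusters 19, 20 and 26, and Pim1 in clusters 19, 20 and 58. The share of all genes that were lower in both was not counted within clusters. Since the genes were also chosen on this contrast, nothing is read from the number of clusters. In cluster 20 Nfkbiz was at 7.55 to 11.3 CPM in the Fc-enhanced mice, against 39.1 to 51.1 in the other 4. The low values there rest on 3 UMIs in GITR/Syn GA-aFuc and 7 in GA-aFuc. In cluster 19 Nfkbiz was at 44.0 to 73.8 against 81.3 to 177, and in cluster 26 at 47.8 to 214 against 245 to 273. The 47.8 in cluster 26 rests on 3 UMIs. Pim1 was at 32.7 to 41.9 CPM in cluster 20 of the Fc-enhanced mice, against 58.6 to 167 in the other 4, and at 56.5 to 143 against 145 to 306 in cluster 19. In cluster 58, which held 1 cell in Untreated 2 and 4 in GITR/Syn GA-aFuc, Pim1 was at 68.4 to 70.6 against 74.7 to 186 CPM. In cluster 26 Pim1 overlapped, with 287 to 329 in the Fc-enhanced mice against 274 to 571 CPM. Nfkbia was lower in both in cluster 19, with 139 to 220 against 250.6 to 439, and overlapped in clusters 20, 26 and 48. Nfkbid was lower in both in cluster 26, with 63.8 to 68.9 against 69.95 to 170 CPM. Its 63.8 and 68.9 rest on 4 and 9 UMIs. The 68.9 has an interval of 31.5 to 131, so the gap to 69.95 was within counting error. In cluster 48 none of the 6 genes was lower in both Fc-enhanced mice. These clusters held as few as 12 cells in a mouse for cluster 26 and 8 for cluster 48. In edgeR fits to single clusters, the joined change was -0.94 (SE 0.22) for Nfkbia and -1.16 (SE 0.29) for Pim1 in cluster 19. For Nfkbiz in cluster 20 the joined change was -2.19 (SE 0.48). These changes passed the adjusted threshold, and nothing is read from them because these samples chose the genes. Depth still differed within cluster 19, with medians of 7461 and 7515 UMIs per cell in the Fc-enhanced mice against 5194 to 5769 in the other 4. In cluster 58 the Fc-enhanced medians were lower, 19786 and 20251 against 21879 to 26771, and in clusters 20 and 26 the medians overlapped. The part of depth within clusters was not tested.

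Markers of other cells were read in the same NK cells. Summed macrophage markers were 697 and 495 CPM in the N297A mice, 742 in GA-aFuc and 446 in GITR/Syn GA-aFuc, against 851 and 964 in the Untreated mice, so GA-aFuc lay inside the range of the other 4. Summed immediate early and stress genes were 3692 CPM in GA-aFuc, below the other 4 mice, and 4249 in GITR/Syn GA-aFuc, inside their range of 4086 to 4553. Summed monocyte markers were 1804 and 1684 CPM in the N297A mice, 2035 in GA-aFuc and 1772 in GITR/Syn GA-aFuc, against 1909 and 1442 in the Untreated mice, highest in GA-aFuc. Summed NK markers were 3328 and 3504 CPM in the N297A mice, 3066 in GA-aFuc and 3248 in GITR/Syn GA-aFuc, against 3508 and 3385 in the Untreated mice, so both Fc-enhanced mice lay below the other 4. The part of these lists in the NK result was not tested.

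In CD8 T cells GITR/Syn GA-aFuc was low for most of the genes and GA-aFuc was not, and the difference from NK cells was not tested. None of the 6 genes was lower in both Fc-enhanced mice than in the other 4 (6.72% of 7519 genes were). Pim1 stood at 165 and 189 CPM in CD8 T cells of the N297A mice, 177 in GA-aFuc and 80.3 in GITR/Syn GA-aFuc, against 146 and 154 in the Untreated mice. The GITR/Syn GA-aFuc value, from 115 UMIs in 162 cells, has an interval of 66.3 to 96.4, below the values of the other 5 mice. Nfkbia stood at 308 and 257 in the N297A mice, 317 in GA-aFuc and 152 in GITR/Syn GA-aFuc, against 257 and 242 CPM in the Untreated mice. GA-aFuc, low for Nfkbia in NK cells, was the highest mouse for it here.

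Nfkbiz stood at 54.8 and 67.7 CPM in CD8 T cells of the N297A mice, 58.7 in GA-aFuc and 18.2 in GITR/Syn GA-aFuc, against 55.6 and 25.5 in the Untreated mice. Untreated 2 lay inside the GITR/Syn GA-aFuc interval of 11.9 to 26.6. Nfkb1 was lowest in the same mouse, at 181 against 203 to 304 CPM in the other 5, and Tnfaip3 was lowest at 362 against 371 to 475. The GITR/Syn GA-aFuc mouse was thus the lowest for 5 of the 6 genes, where 17.7% of all genes had it lowest, and Nfkbid, lowest in Untreated 2, was the exception. The edgeR change against Untreated was -0.88 (SE 0.19) for Pim1, -0.70 (SE 0.18) for Nfkbia and -1.24 (SE 0.40) for Nfkbiz, and none passed the adjusted threshold (0.154% of all genes did, in either direction). GA-aFuc lay below both Untreated mice in NK cells and above both in CD8 T cells for 5 of the 6 genes, Tnfaip3 being the exception, and 9.57% of 6747 genes with at least 100 UMIs in each cell type did so. With each cell thinned to 2000 UMIs this held for Nfkbia and Nfkb1 alone of the 6 genes. In the GA-aFuc CD8 T cells, 1 cell held 74 of the 393 Nfkb1 UMIs and 1 cell held 56 of the 448 Nfkbia UMIs. The 23 cells of CD8 cluster 38 in that mouse held 193 of these Nfkb1 UMIs and 232 of these Nfkbia UMIs. In GA-aFuc the edgeR changes in CD8 T cells were 0.26 (SE 0.17) for Pim1, 0.37 (SE 0.17) for Nfkbia and 0.45 (SE 0.33) for Nfkbiz.

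Depth differed little between mice in CD8 T cells, with a median of 7529 UMIs in GITR/Syn GA-aFuc, against 7925 to 8771 in the other 5 mice. Within CD8 clusters, Nfkb1 was lower in both Fc-enhanced mice in cluster 16 (191 to 212 against 232 to 361 CPM) and in cluster 23 (139 to 212 against 343 to 429). Nfkbiz was lower in both in cluster 33 and Pim1 in cluster 44, while Nfkbid was higher in both in cluster 33. In clusters 33 and 44 these values rest on 6 to 10 UMIs in each Fc-enhanced mouse. Every other pair of gene and CD8 cluster overlapped. How many of all genes lie lower or higher in both within a CD8 cluster was not counted, so nothing is read from these cases. In cluster 38 GA-aFuc was the highest mouse for Nfkbia at 579 CPM, and GITR/Syn GA-aFuc the lowest at 230. Pim1 in cluster 38 followed the same order, with 252 in GA-aFuc and 102 in GITR/Syn GA-aFuc, against 114 to 230 CPM in the other 4 mice.

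In monocytes Nfkbia and Tnfaip3 were higher in both Fc-enhanced mice, and in macrophages Nfkbia was. Nfkbia stood at 252 and 212 CPM in monocytes of the N297A mice, 268 in GA-aFuc and 333 in GITR/Syn GA-aFuc, against 233 and 211 in the Untreated mice. The Fc-enhanced mean was 301 against 227 ± 19.7 (SD, n = 4). Tnfaip3 stood at 98.6 and 83.2 in the N297A mice, 121 in GA-aFuc and 108.5 in GITR/Syn GA-aFuc, against 83.6 and 68.1 CPM in the Untreated mice. These 2 of the 6 genes were higher in both Fc-enhanced mice in monocytes, where 9.8% of 9587 genes were. Pim1 overlapped, with 519 and 462 in the N297A mice, 464.5 in GA-aFuc and 508 in GITR/Syn GA-aFuc, against 553 and 463 CPM in the Untreated mice.

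In macrophages Nfkbia stood at 168 and 171 CPM in the N297A mice, 194 in GA-aFuc and 199 in GITR/Syn GA-aFuc, against 168 and 168 in the Untreated mice. It was the single gene of the 6 that was higher in both Fc-enhanced mice there, where 9.54% of 11593 genes were. The difference was small, 197 against 169 ± 1.52 CPM (SD, n = 4), and the edgeR change in the joined comparison was 0.20 (SE 0.08). The higher values of Nfkbia and Tnfaip3 in monocytes and of Nfkbia in macrophages held when each mouse was given the same cluster make-up. None of the 6 passed the adjusted threshold in macrophages in the joined comparison (0.0148% of all genes did, in either direction), nor in monocytes in GA-aFuc (0.193%) or GITR/Syn GA-aFuc (0.21%) against Untreated, and the largest edgeR changes in these 2 cell types were 0.67 (SE 0.16) for Tnfaip3 in GA-aFuc monocytes and 0.60 (SE 0.13) for Nfkbia in GITR/Syn GA-aFuc monocytes.

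**Figure D4:**
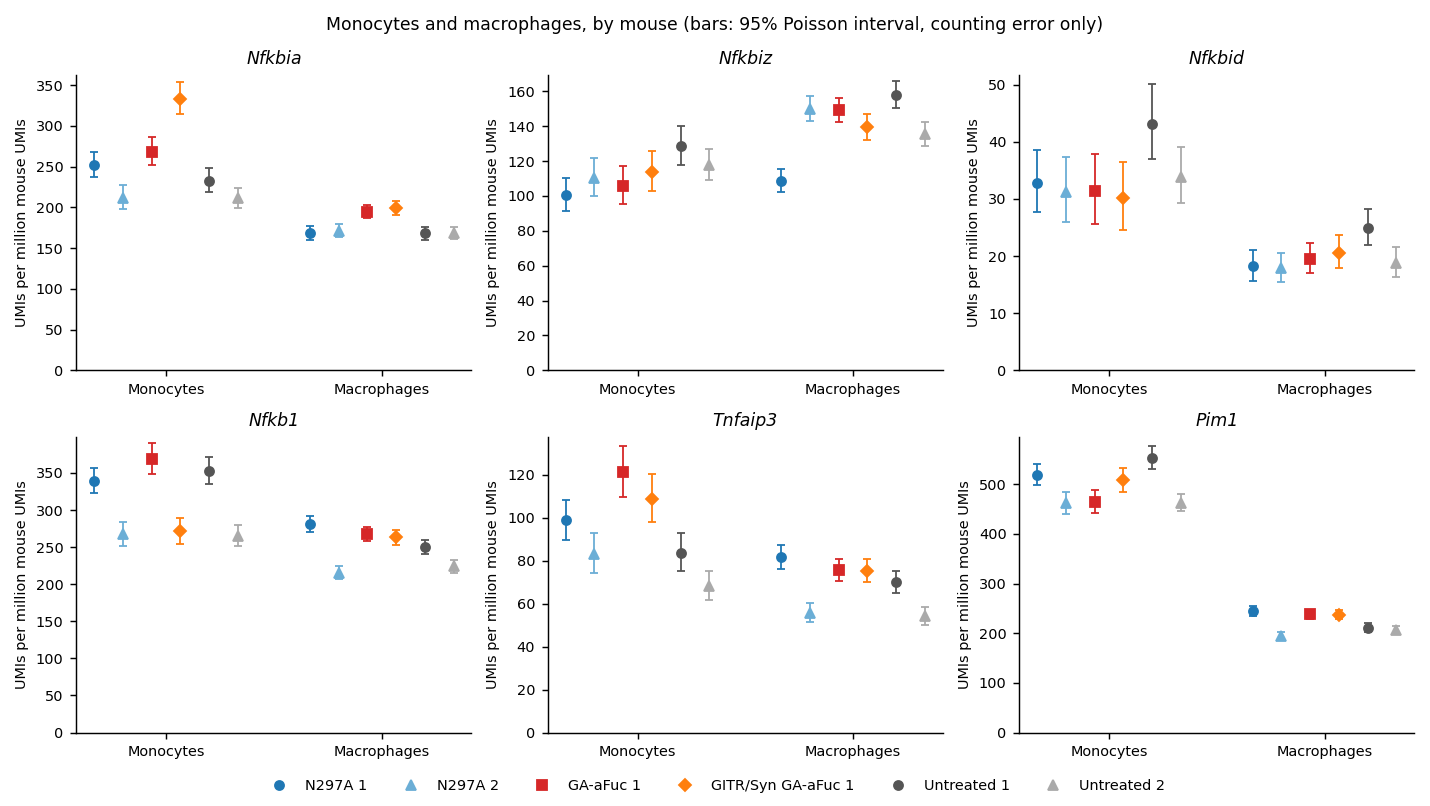
Level of the 6 genes (CPM) in monocytes and macrophages of each mouse, with exact 95% Poisson intervals that cover counting error only, antibody-treated mice left of Untreated mice. Nfkbia of GA-aFuc and GITR/Syn GA-aFuc lies above the other 4 mice in both cell types, and Pim1 overlaps.

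In cDC2, Nfkbia stood at 170 and 214 CPM in the N297A mice, 235 in GA-aFuc and 141 in GITR/Syn GA-aFuc, against 116 and 47.3 in the Untreated mice. All 4 antibody-treated mice were above both Untreated mice, which held for 8.09% of 3558 genes in cDC2, and a mouse had 26 to 47 of these cells. The edgeR change against Untreated was 1.23 (SE 0.35) in N297A, 1.504 (SE 0.40) in GA-aFuc and 0.78 (SE 0.43) in GITR/Syn GA-aFuc, none past the adjusted threshold (0.0169%, 0.0676% and 0.135% of all genes were, in either direction). Pim1 in the same cells ranged from 579 to 700.1 CPM over the 4 antibody-treated mice, against 610 and 621 in the Untreated mice.

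The other genes of the pathway were few among the genes called in cell types. In single clusters the joined comparison called Ccl5 (-2.12, SE 0.19) and Gadd45b (-3.76, SE 0.95) in NK cluster 19. It also called Ccl4 (-2.21, SE 0.46) in NK cluster 20 and Hspa1a (3.52, SE 0.55) in CD8 cluster 16. These cluster calls were not recomputed under the alternatives. Over all NK cells the joined change of Ccl5 was -1.48 (SE 0.13). Ccl5 kept that call in 10 of 12 settings and lost it without Untreated 1. In NK cells of GITR/Syn GA-aFuc against Untreated, 1 of 14 NF-kB target genes tested (20 listed) passed as lower and none as higher. It was Ccl5, a chemokine gene of cytotoxic lymphocytes, at 2869 and 2029 CPM in the N297A mice, 829 in GA-aFuc and 750.4 in GITR/Syn GA-aFuc, against 2260 and 2041 in the Untreated mice. Its change was -1.48 (SE 0.18, edgeR adjusted p = 0.0263), and without Untreated 2 the edgeR adjusted p was 0.887. Ccl5 also passed in GA-aFuc against Untreated, with a change of -1.32 (SE 0.17, edgeR adjusted p = 0.0199), and not without Untreated 2, where the edgeR adjusted p was 0.350. One target passed as higher in GA-aFuc NK cells, the chemokine gene Cxcl2, which had 103 CPM in GA-aFuc against 9.80 and 9.05 in the Untreated mice. That change was 3.49 (SE 0.43, edgeR adjusted p = 0.00482; 0.350 without Untreated 2), and 153 of the 168 Cxcl2 UMIs came from 1 cell. The median change of the 14 targets was -0.02 in GA-aFuc against 0.00 over all genes tested, and -0.57 in GITR/Syn GA-aFuc, against -0.01 over all genes tested. The 4 other NF-kB subunit genes, none of which passed, had a median of -0.26 in GA-aFuc and -0.14 in GITR/Syn GA-aFuc. Relb, the subunit of the alternative NF-kB pathway, stood at 110 and 74.2 CPM in NK cells of the N297A mice, 49.8 in GA-aFuc and 50.3 in GITR/Syn GA-aFuc, against 66.7 and 112 in the Untreated mice. Of 14 other inhibitors and feedback genes tested in NK cells, none passed in either comparison, and 3 had a positive change in GA-aFuc and 6 in GITR/Syn GA-aFuc.

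Of the 13 other PIM and STAT5 genes tested in NK cells none passed. Among them, 6 of 13 changes were positive in GA-aFuc and 6 of 13 in GITR/Syn GA-aFuc, and the median was -0.01 in GA-aFuc and -0.17 in GITR/Syn GA-aFuc. The other PIM kinase genes, named outside the rule for named genes, overlapped between the groups. Pim3 was at 47.0 and 34.4 CPM in the N297A mice, 40.6 in GA-aFuc and 31.9 in GITR/Syn GA-aFuc, against 37.2 and 37.2 in the Untreated mice. Bcl2, a survival gene highest in NK cells at 613 CPM pooled, stood at 742 and 619 in the N297A mice, 591 in GA-aFuc and 508 in GITR/Syn GA-aFuc, against 568 and 671 in the Untreated mice, so that the groups overlapped.

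In CD8 T cells 1 of 9 upstream receptors tested (12 listed) passed as lower in GITR/Syn GA-aFuc against Untreated and none as higher. It was Tnfrsf4, which encodes OX40, a costimulatory receptor of the same superfamily as GITR. Tnfrsf4 stood at 126 and 145 CPM in the N297A mice, 139 in GA-aFuc and 52.4 in GITR/Syn GA-aFuc, against 146 and 206 in the Untreated mice. The change was -1.70 (SE 0.23, edgeR adjusted p = 0.000674). It passed in 10 of 11 settings, with an adjusted p of 0.134 without Untreated 2. Of 14 NF-kB targets tested in CD8 T cells of GA-aFuc against Untreated, 1 passed as higher, the cytokine gene Csf2 (edgeR adjusted p = 0.000576; 0.155 without Untreated 1). It had 78 UMIs in 4 of 134 GA-aFuc cells, 30 of them in 1 cell, against 2 UMIs in Untreated 1 and 0 in Untreated 2. In CD8 T cells GITR/Syn GA-aFuc was thus low for this receptor gene as well as for Pim1, Nfkbia and Nfkbiz.

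In monocytes Il1a, an NF-kB target that encodes interleukin 1 alpha, passed in the joined comparison of both Fc-enhanced antibodies with N297A and Untreated (0.166% of all genes passed as higher). Il1a stood at 26.5 and 20.7 CPM in the N297A mice, 49.2 in GA-aFuc and 44.6 in GITR/Syn GA-aFuc, against 24.8 and 18.8 in the Untreated mice. Its change was 1.04 (SE 0.15, edgeR adjusted p = 0.0264), and without GA-aFuc the adjusted p was 0.0944. The other called target, Cxcl1, a neutrophil-attracting chemokine gene, changed by 3.70 (SE 0.56, edgeR adjusted p = 0.0344) in GITR/Syn GA-aFuc, with 29 of its 47 UMIs in 1 cell. Tlr4, which encodes a Toll-like receptor, changed in monocytes by 1.02 (SE 0.15, edgeR adjusted p = 0.0257; 0.279 with DESeq2) in GA-aFuc against Untreated. The stress gene Hspa1b changed by 2.15 (SE 0.34, edgeR adjusted p = 0.0367; 0.0812 with DESeq2) in GITR/Syn GA-aFuc monocytes, with 55 of its 114 UMIs in 1 cell. In cDC2 the chemokine gene Ccl3 changed by 3.09 (SE 0.59, edgeR adjusted p = 0.0223; 0.999 with DESeq2) in GA-aFuc, from 48 UMIs. Over the 19 targets tested in monocytes in the joined comparison, 16 changes were positive, with a median of 0.19 against -0.01 over all genes.

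Between cell types the pathway's other genes had their own high points. Rel, the c-Rel subunit, was highest in mregDC at 2219 CPM pooled, and Relb was highest there too at 694. Tnfrsf18, which encodes GITR, was highest in Tregs at 961 CPM, against 245 in CD8 T cells and 140 in NK cells. Malt1, a protease that links antigen receptors to NF-kB, was highest in cDC2 at 916 CPM. Traf1, an adaptor gene, was highest in mregDC at 854. Il2ra, a STAT5 target that encodes the alpha chain of the interleukin 2 receptor, was highest in Tregs at 1082 CPM, the cell type where Pim1 also had its highest mean.

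Across 51 clusters and 11653 genes, the closest patterns differed between the 6 genes. Likeness is Pearson's r of log2 level over clusters, which share 1 library and differ in depth, and it is a description. Nfkbia and Nfkb1 were close to each other (r = 0.84), and Creb1 was close to both, with r = 0.81 to Nfkbia and 0.86 to Nfkb1. Nearest to Nfkbiz was Arhgef3 (r = 0.79), and nearest to Nfkbid was Med13 (r = 0.76). Nearest to Tnfaip3 were Eeig1 and Vps37b (r = 0.89 each), and nearest to Pim1 were Rab11fip1 (r = 0.87) and St3gal1 (r = 0.86). Of the 6 genes, Nfkbia and Nfkb1 were the pair that stood among each other's 3 nearest.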

How the data were processed

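Single-cell 3′ gene expression was measured in 1 library of CD45+ tumour cells from 6 hashtagged mice. The authors deposited raw UMI counts as a matrix of all barcodes, made with Cell Ranger 9.0.0 per the file headers against combined human and mouse genomes (GRCh38 and GRCm39 per the submitters' processing notes), and a table of cells with cell type, cluster and treatment. Hashtag counts are rows of the same deposited matrix; no source used here gives the authors' filters or their way of naming cell types. Of 19210 table entries for 19176 barcodes, those found in this library with at least 1000 mouse UMIs were kept, which left 8716 cells after 18 entries with repeated barcodes and 33 cells whose top hashtag did not match the treatment were left out. The top hashtag (median share of a cell's hashtag counts 96.2%) named the mouse. Doublets were not called, and removing the top 5% of cells by UMIs was an alternative.

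UMIs were summed per mouse and cell type or cluster and divided by all mouse UMIs of those cells. Intervals are exact 95% Poisson. edgeR 4.0.16 (quasi-likelihood, TMM, filterByExpr, Benjamini-Hochberg over all genes, threshold 0.05) was fitted to 5 cell types and to 3 clusters with at least 20 cells in every mouse, after the code was tested on simulated data; an SE is the log2 change divided by the square root of F. The p-values rest on how far mice of the same group lie apart (2 residual degrees of freedom before moderation), and groups of 1 mouse are assumed to vary like the groups of 2. All treatment comparisons against Untreated share the same 2 mice. Human genes and hashtags entered no sum. The 6 genes and the 8 lists were chosen with earlier results of these data known, and the joined Fc comparison was added after the values were seen. Named besides the 6 are listed genes past the threshold (up to 4 per list and comparison), the 3 highest of each list, and the 3 genes nearest to each of the 6. Alternatives were DESeq2 1.42.0 (Wald test and size factors), no filter on low counts, a minimum of 3000 UMIs, removal of the top cell, thinning to 2000 UMIs, a common cluster make-up and leaving out each mouse.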

Additional observations from a re-analysis of the deposited data

Results flagged for a closer look

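For 5 of the 6 genes, GA-aFuc against Untreated went one way in NK cells and the other way in CD8 T cells of the same mouse, against both Untreated mice in each cell type. The difference between the 2 cell types was not tested. Values are changes of log2(CPM + 1) of the single GA-aFuc mouse against the Untreated mean. Nfkbia changed by -0.99 in NK cells and 0.34 in CD8 T cells, a difference of -1.33. Nfkbiz changed by -0.97 in NK cells and 0.52 in CD8 T cells, a difference of -1.49. Nfkbid changed by -1.19 in NK cells and 0.50 in CD8 T cells, a difference of -1.70, on 23 UMIs in the GA-aFuc NK cells. Nfkb1 changed by -0.38 in NK cells and 0.12 in CD8 T cells, a difference of -0.50. Pim1 changed by -0.88 in NK cells and 0.23 in CD8 T cells, a difference of -1.11. These opposite directions held for 9.57% of 6747 genes with at least 100 UMIs in each cell type. In the GA-aFuc CD8 T cells the top cell of each gene held 74 of 393 Nfkb1 UMIs and 17 of 83 Nfkbiz UMIs. It held 56 of 448 UMIs for Nfkbia, 8 of 45 for Nfkbid and 15 of 250 for Pim1. Of these UMIs, the 23 GA-aFuc cells of CD8 cluster 38 held 232 for Nfkbia, 193 for Nfkb1 and 43 for Nfkbiz. They held 33 for Nfkbid and 101 for Pim1. In clusters 16, 23 and 44 Nfkbia of GA-aFuc lay between the Untreated mice, and in clusters 33 and 38 above both. Nfkb1 of GA-aFuc lay below both in clusters 16 and 23, between them in clusters 33 and 44, and above both in cluster 38. In Untreated 2 the top CD8 T cell held 29 of 209 Nfkbia UMIs. With each cell thinned to 2000 UMIs, the 5 genes stayed below both Untreated mice in the GA-aFuc NK cells, while the direction in CD8 T cells did not hold for 3 of them. Pim1 was then at 123 CPM in the GA-aFuc CD8 T cells, below both Untreated mice at 156 and 134. Nfkbid was at 22.4 CPM in GA-aFuc, between 30.2 and 18.3 in the Untreated mice, and Nfkbiz at 52.2, between 67.8 and 12.2. No group held 4 mice, so no mouse was checked against its own group for standing apart.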

How the results depend on the processing

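No change of sign past the threshold was seen under any alternative. The changes of the 6 genes were recomputed in NK cells and CD8 T cells alone, where 443 were kept, 22 moved further and 15 lost the call. Among these changes, only Nfkbiz and Pim1 in NK cells had a call to lose. Their calls were in GITR/Syn GA-aFuc against Untreated and in the joined comparison. The joined calls of Nfkbia and Pim1 in NK cluster 19 and of Nfkbiz in NK cluster 20 were not recomputed. All other recomputed changes had no call, and were kept where they moved by no more than their SE. The 15 therefore belong to those called changes and not to all that were recomputed. Of the listed genes' changes, 107 kept the call and 38 lost it. Of the level ratios between cell types 117 stayed within the spread and 3 moved, all with cells thinned to 2000 UMIs. The NK over CD8 ratio on the log2 scale became 0.38 for Nfkbia and 0.30 for Pim1, both negative without thinning. For Nfkb1 it became 1.10. Thinned levels count every cell equally and CPM weights cells by their UMIs, so the sign for Nfkbia and Pim1 depended on the measure. The cause was not tested.

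Counts of called genes over 5 cell types were 5 for N297A, 43 for GA-aFuc and 53 for GITR/Syn GA-aFuc against Untreated, and 38 for the joined comparison. DESeq2's Wald test gave 2, 20 and 24 for the first 3, no filter on low counts gave 67, 273, 292 and 312, and without the top 5% of cells N297A had 2. Over 3 NK and CD8 clusters the counts were 4, 30, 30 and 66, DESeq2's Wald test gave 1, 5, 2 and 5, and for N297A DESeq2's size factors gave 7 and no filter 15. Leaving out 1 mouse gave 3 to 153, 44 to 130, 42 to 196 and 50 to 265 over cell types, and 5 to 38, 31 to 82, 23 to 127 and 37 to 156 over clusters. The cause was not tested.

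For NK cells, leaving out 1 mouse cannot undo the ordering of the 6 genes (6 to 6 by construction). In CD8 T cells the count of genes lower in both Fc-enhanced mice was 0, became 1 with thinning and ran from 0 to 5 without 1 mouse, with 5 without GA-aFuc and 1 without N297A 2. No paired analysis was possible because the hashtag numbers pair no mice across treatments. Depth limits Nfkbid most, and 1 mouse per Fc-enhanced antibody limits every comparison of those 2.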
